A study of Homo sapiens with 14 samples.

Results

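The 9 megakaryocyte and platelet genes described here were followed through all 14 RNA-seq libraries of a K562 series: ITGA2B, ITGB3, GP9, GP1BA, PF4, THBS1, SELP, FLI1 and VWF. They were taken as a list of names, by a rule that contains no measured value, but the list was drawn up with earlier results of these data known. They are 9 of the 24729 genes in the deposited read count table, where all 9 have a row. K562 is a human chronic myeloid leukemia cell line that carries erythroid features and can be driven towards megakaryocytes. The series holds 5 groups. WT is the parental line (n = 2). The other groups stably express Flag- and biotin-tagged catalytically inactive Cas9 (dCas9) with the biotin ligase BirA, and differ in the guide RNA: sgGal4, which has no human target (n = 3), sgHBG, aimed at the fetal globin gene promoters (n = 3), sgHS2, aimed at HS2, one of the enhancers that control the β-globin genes from a distance (n = 3), and sgHS1-5, aimed at several such elements of the same locus (n = 3). No gene named here was a target. The labels do not say whether libraries of a group came from separate cultures or clones, so a p-value here reflects only how much the sequenced libraries vary, which may be technical.

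Megakaryocytes are the bone marrow cells that shed platelets. They share a progenitor and much of their transcription machinery, including GATA1, with red cell precursors, and FLI1, a transcription factor of the ETS family, is known to favour the megakaryocytic over the erythroid direction. Platelets stick to a damaged vessel through the glycoprotein Ib-IX-V receptor, which binds von Willebrand factor, and then to each other through the integrin αIIbβ3, which binds fibrinogen. Their α-granules store adhesive and chemokine proteins, among them thrombospondin, P-selectin, von Willebrand factor and platelet factor 4, that are released or displayed on activation.

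The libraries held 5694448 to 11335831 counted reads, and the 3 sgHS1-5 libraries were the shallowest. A count of 0 in a library allows up to 0.262 CPM (counts relative to library size, here scaled by TMM, a correction for library composition) in sgHBG 3 and up to 0.486 CPM in sgHS1-5 1, by counting error only. Some libraries stood apart from their group. Counts of sgGal4 1 differed from those of sgGal4 2 and 3 by a chi-square of 84.1 and 87.6 per degree of freedom, against 1.46 between the latter, and its TMM factor was 0.743. Library sgHS2 2 differed from its group mates by 16.3 and 15.6 per degree of freedom. Between the sgHS1-5 libraries the values were 17.1, 3.01 and 11.2. Erythroid marker genes (17 listed) had a summed level of 1581 to 2757 CPM, with 15 to 17 of them detected in each library, and the fibroblast markers reached at most 23.1 CPM. The endothelial marker EMCN had no read in any library.

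Promoter sequences were at hand for 4 of the 9 genes, each covering 250 bases before to 50 after the transcription start (RefSeq, build GRCh38.p14, while the counts were made on hg19). All 4 are shown, and none was at hand for ITGB3, GP1BA, PF4, VWF or FLI1. Whether FLI1 acts on these genes was not tested. Capitals mark the letters AGGAAG, which hold the ETS core, and the letters GATAA, read by factors such as GATA1, on either strand, so a match on the opposite strand appears as its reverse complement. The windows are, in the order of the list, chr17:44389600-44389899 (minus strand), chr15:39580829-39581128 (plus), chr1:169630075-169630374 (minus) and chr3:129060529-129060828 (plus).
ITGA2B: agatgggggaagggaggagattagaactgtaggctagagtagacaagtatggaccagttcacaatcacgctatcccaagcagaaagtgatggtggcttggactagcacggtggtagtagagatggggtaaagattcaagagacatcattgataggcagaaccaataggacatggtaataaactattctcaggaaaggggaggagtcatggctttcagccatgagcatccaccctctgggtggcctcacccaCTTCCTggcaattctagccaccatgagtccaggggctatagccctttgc
THBS1: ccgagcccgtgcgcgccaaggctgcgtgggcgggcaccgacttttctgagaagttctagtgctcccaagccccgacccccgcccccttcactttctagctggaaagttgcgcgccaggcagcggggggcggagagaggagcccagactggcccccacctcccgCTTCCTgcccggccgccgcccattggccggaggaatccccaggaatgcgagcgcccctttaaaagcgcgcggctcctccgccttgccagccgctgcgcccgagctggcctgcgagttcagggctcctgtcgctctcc
SELP: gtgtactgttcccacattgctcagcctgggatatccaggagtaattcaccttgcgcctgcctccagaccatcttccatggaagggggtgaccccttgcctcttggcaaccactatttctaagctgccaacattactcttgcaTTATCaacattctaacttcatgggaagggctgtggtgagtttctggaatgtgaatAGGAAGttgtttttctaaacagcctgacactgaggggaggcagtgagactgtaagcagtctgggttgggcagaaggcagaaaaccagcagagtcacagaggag
GP9: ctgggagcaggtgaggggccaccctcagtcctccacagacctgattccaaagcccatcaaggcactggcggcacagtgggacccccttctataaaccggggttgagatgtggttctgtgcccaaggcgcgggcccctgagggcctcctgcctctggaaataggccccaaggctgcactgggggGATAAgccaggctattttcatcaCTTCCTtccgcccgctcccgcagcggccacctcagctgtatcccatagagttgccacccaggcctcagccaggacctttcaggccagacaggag
All 4 windows hold AGGAAG, and those of SELP and GP9 hold GATAA as well, with no overlap between the matches. Of 35116 promoter windows of the same length, 33.6% hold AGGAAG, 22.7% GATAA and 7.85% both. A match is a description of letters and not a binding site.

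Measured per length, ITGA2B was the most abundant of the 9 genes and PF4 the least. The level of ITGA2B lay between 10.9 and 67.3 RPKM (reads scaled to transcript length and depth, as deposited), with a median of 20.4 over the 14 libraries. THBS1 had a median of 3.56 RPKM, ITGB3 of 1.22 and GP1BA of 1.07. The medians of FLI1 (0.134 RPKM), VWF (0.0969 RPKM), SELP (0.0458 RPKM) and GP9 (0.0428 RPKM) were low, and PF4 was listed at 0 in 11 of 14 libraries. The ranges of ITGB3 (0.272 to 2.22 RPKM) and GP1BA (0.369 to 1.94 RPKM) overlap, as do those of the low genes, so this order rests on medians only.

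**Figure D1:**
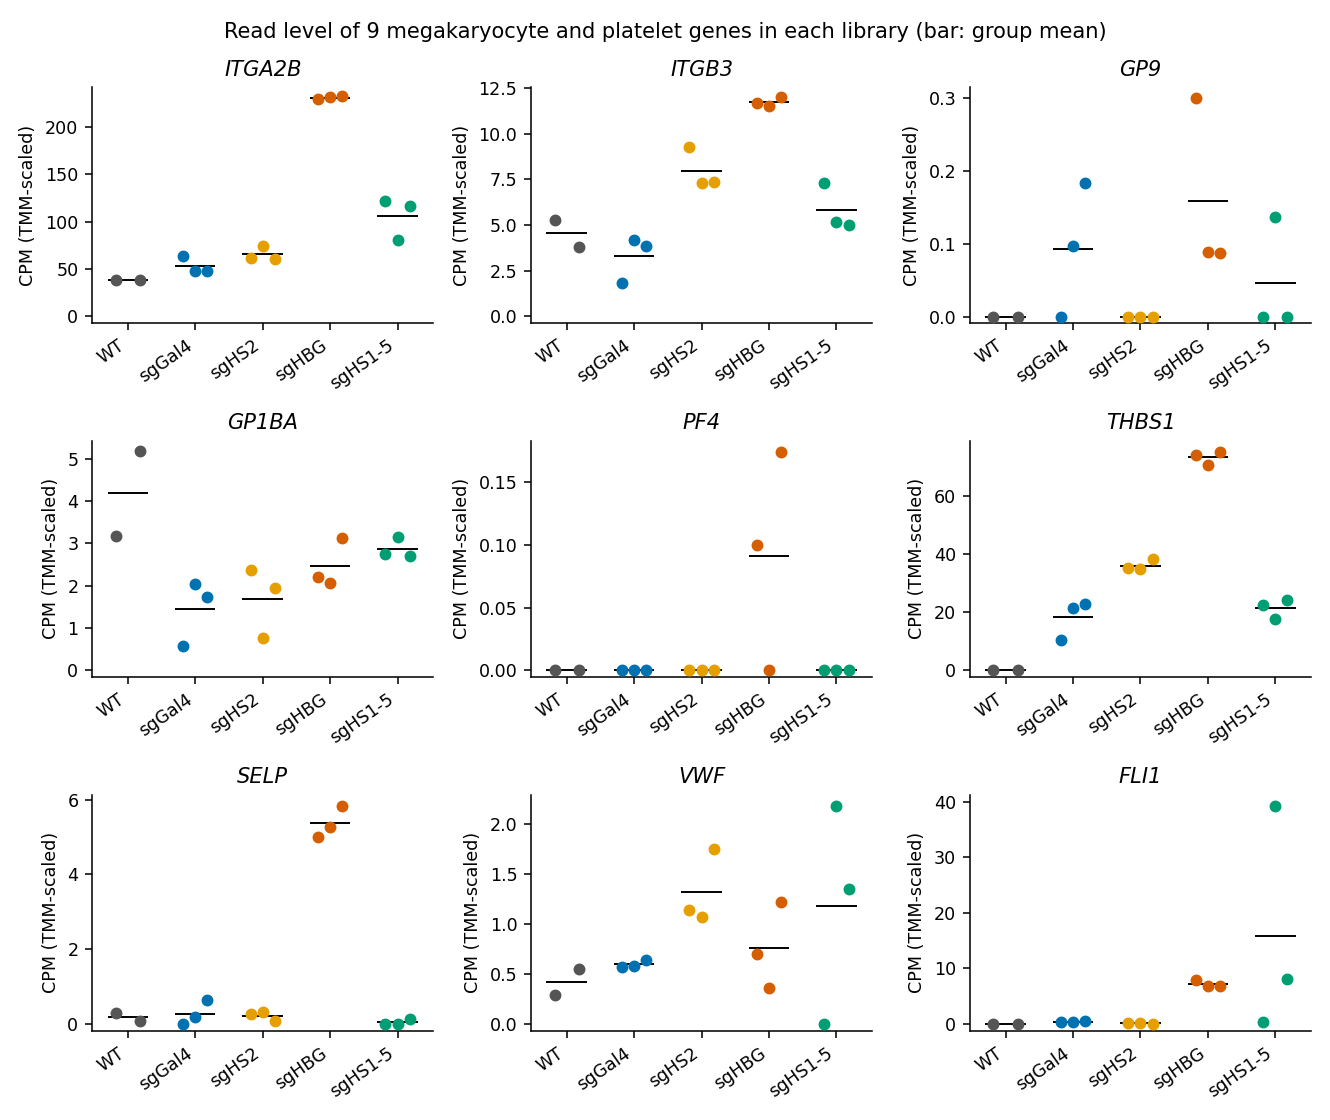
Levels of the 9 genes by group, 1 panel per gene, in CPM scaled by TMM. Points are libraries and bars are group means (n = 2 for WT, n = 3 otherwise). ITGA2B, ITGB3, THBS1 and SELP reach their highest levels in all 3 sgHBG libraries, and FLI1 spreads from 0.324 to 39.3 CPM within sgHS1-5.

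Both chains of the platelet integrin αIIbβ3 were higher in sgHBG cells than in sgGal4 cells. ITGA2B encodes αIIb, which is restricted to the megakaryocyte lineage and its precursors. Its level was 38.5 and 38.4 CPM in WT, 63.4, 48.4 and 48.2 CPM in sgGal4, 61.7, 74.3 and 60.8 CPM in sgHS2, 229, 231 and 232 CPM in sgHBG, and 122, 80.3 and 117 CPM in sgHS1-5. The sgHBG libraries lay close together and above all others, sgHS1-5 came second without overlap with sgGal4 or sgHS2, and sgHS2 overlapped sgGal4. The log2 difference from sgGal4 was 2.12 ± 0.16 (SE) in sgHBG (edgeR adjusted p = 3.74e-06) and 1.0 ± 0.16 in sgHS1-5 (edgeR adjusted p = 0.000439). In sgHS2 it was 0.30 ± 0.16 and did not pass the test (edgeR adjusted p = 0.171). Without sgGal4 1, the sgGal4 library with the highest ITGA2B, the sgHS2 difference of ITGA2B was 0.44 and passed (edgeR adjusted p = 0.0321).

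The order of ITGA2B levels was sgHBG, sgHS1-5, sgHS2, sgGal4 and WT, and only the neighbours sgHS2 and sgGal4, and sgGal4 and WT, did not pass the test. ITGA2B in sgHBG exceeded that in sgHS1-5 by 1.12 ± 0.16 on the log2 scale (edgeR adjusted p = 0.000346) and that in sgHS2 by 1.81 ± 0.16 (edgeR adjusted p = 3.35e-05). In sgHS2 it was lower than in sgHS1-5 by a log2 difference of −0.70 ± 0.16 (edgeR adjusted p = 0.00397). Against WT, ITGA2B was 6.0-fold higher in sgHBG, 2.77-fold higher in sgHS1-5 and 1.70-fold higher in sgHS2 (edgeR adjusted p = 8.31e-07, 5.01e-05 and 0.00547). In sgGal4 the difference from WT was 0.47 ± 0.18 (edgeR adjusted p = 0.052), although the libraries of these groups did not overlap. It passed without sgGal4 2, sgGal4 3, sgHS1-5 1 or sgHS1-5 2 (edgeR adjusted p for ITGA2B = 0.0482, 0.0452, 0.0466 and 0.0142).

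ITGB3 encodes the β3 chain, which pairs with αIIb in platelets and with αv in other cells. Its level was 5.29 and 3.83 CPM in WT, 1.84, 4.16 and 3.85 CPM in sgGal4, 9.27, 7.29 and 7.37 CPM in sgHS2, 11.7, 11.5 and 12 CPM in sgHBG, and 7.29, 5.19 and 5.00 CPM in sgHS1-5. All 9 libraries with a targeting guide were above all 3 sgGal4 libraries. The log2 difference of ITGB3 from sgGal4 was 1.80 ± 0.25 in sgHBG (edgeR adjusted p = 0.000351), 1.24 ± 0.26 in sgHS2 (0.00294) and 0.78 ± 0.27 in sgHS1-5 (0.0335). The last of these was lost without sgGal4 1, the lowest library, where ITGB3 differed by 0.53 (edgeR adjusted p = 0.0616), and without sgHS1-5 1, the highest of its group, where it differed by 0.59 (edgeR adjusted p = 0.123), and narrowly without sgHBG 1 (0.051). In all, this sgHS1-5 call held under 19 of 27 other settings. Between targeting groups, ITGB3 in sgHBG exceeded sgHS1-5 by 1.02 ± 0.25 (edgeR adjusted p = 0.00976), or by 0.69 without sgHS1-5 2 and 3 (0.254). Its excess of 0.56 ± 0.24 over sgHS2 did not pass (edgeR adjusted p = 0.178), but did without sgGal4 1 (0.0316). ITGB3 was 1.35-fold lower in sgGal4 than in WT, which did not pass (edgeR adjusted p = 0.251), and 2.58-fold higher in sgHBG than in WT (edgeR adjusted p = 0.0023).

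The chains were not at equal levels. The ratio of ITGA2B to ITGB3, both in RPKM, lay between 9.73 and 32.1 in 13 libraries, and was 70.7 in sgGal4 1, where ITGB3 was lowest. It was 30.3, 32.1 and 31.4 in the sgHBG libraries and 9.73, 16.8 and 12 in the sgHS2 libraries.

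The ligand-binding chain of the von Willebrand factor receptor was highest in WT. GP1BA encodes glycoprotein Ibα, and its level was 3.17 and 5.19 CPM in WT, 0.567, 2.03 and 1.74 CPM in sgGal4, 2.36, 0.751 and 1.93 CPM in sgHS2, 2.20, 2.05 and 3.14 CPM in sgHBG, and 2.75, 3.14 and 2.70 CPM in sgHS1-5. Both WT libraries were above the other 12, WT 1 by a small margin over sgHBG 3 and sgHS1-5 2. GP1BA was lower in sgGal4 than in WT by a log2 difference of −1.47 ± 0.46 (edgeR adjusted p = 0.0208) and in sgHS2 by −1.29 ± 0.45 (edgeR adjusted p = 0.0428). Without WT 2, the highest library, the sgGal4 difference of GP1BA was −1.08 and did not pass (edgeR adjusted p = 0.198). No targeting group passed against sgGal4, with GP1BA log2 differences of 0.18 ± 0.45 in sgHS2, 0.71 ± 0.44 in sgHBG and 0.93 ± 0.45 in sgHS1-5.

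The other subunits of this receptor were nearly unread or could not be counted. GP9, which encodes glycoprotein IX, had 9 reads in all, in 6 of 14 libraries, with at most 3 in one library (sgHBG 1), and it was too low to test. GP5 had 15 reads in all. GP1BB is listed at 0 reads in every library of the count table but at 24.3 to 245 RPKM in the deposited RPKM table. In the RefSeq annotation GP1BB overlaps its neighbour SEPT5 on the same strand, and SEPT5 had 88 reads in all libraries together beside 31.8 to 126 RPKM. The tables therefore disagree on this locus, and no change of GP1BB is given.

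Among the granule proteins, THBS1 and SELP were high in sgHBG cells. THBS1 encodes thrombospondin, an adhesive glycoprotein stored in α-granules and also made by many cells outside the blood. It had 1 read in each WT library and 10.4, 21.6 and 22.9 CPM in sgGal4, 35.1, 34.8 and 38.3 CPM in sgHS2, 74.3, 70.6 and 75.3 CPM in sgHBG, and 22.5, 17.6 and 24.2 CPM in sgHS1-5. Every library with dCas9 was far above WT, the sgHBG libraries were the highest, and sgHS1-5 overlapped sgGal4. The ratio of THBS1 reads in sgGal4 to WT, corrected for depth, was 206, with an exact binomial 95% interval of 56.8 to 1708 that covers counting error only (edgeR adjusted p = 3.61e-07).

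Against sgGal4, THBS1 had a log2 difference of 1.99 ± 0.22 in sgHBG (edgeR adjusted p = 5.74e-05) and of 0.96 ± 0.22 in sgHS2 (0.00517). In sgHS1-5 it was 0.21 ± 0.22 (edgeR adjusted p = 0.47), and it turned to −0.056 without sgGal4 1, the lowest of that group. Between targeting groups THBS1 was 2.03-fold higher in sgHBG than in sgHS2 (edgeR adjusted p = 0.00966), 3.42-fold higher in sgHBG than in sgHS1-5 (0.000138) and 1.68-fold higher in sgHS2 than in sgHS1-5 (0.0162). The last of these was lost without sgHS1-5 2, where the THBS1 log2 difference was 0.62 (edgeR adjusted p = 0.0685), and without sgHS2 3, where it was 0.70 (0.0509). In all, that call held under 24 of 27 other settings. The THBS1 levels thus ran sgHBG, sgHS2, sgHS1-5, sgGal4 and WT, with sgHS1-5 and sgGal4 as the neighbours that did not pass.

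SELP encodes P-selectin, the granule membrane receptor that activated platelets and endothelial cells display to leukocytes. Its reads were 3 and 1 in WT, 0, 2 and 7 in sgGal4, 3, 3 and 1 in sgHS2, 50, 59 and 67 in sgHBG, and 0, 0 and 1 in sgHS1-5. The sgHBG mean was 5.37 ± 0.43 CPM (SD, n = 3), and the libraries of the other 4 groups reached at most 0.642 CPM. The log2 difference of SELP in sgHBG was 4.06 ± 0.58 from sgGal4 (edgeR adjusted p = 0.000389), 4.75 ± 0.73 from WT (0.000287) and 4.52 ± 0.60 from sgHS2 (0.000622). Against sgHS1-5, with 1 read, the SELP count ratio was 113 (exact binomial 95% interval 19.9 to 4471, counting error only, edgeR adjusted p = 0.000153). The 1 read of sgHS1-5 beside the 9 of sgGal4 gave a SELP count ratio of 6.65 in favour of sgGal4 (0.921 to 291), which did not pass (edgeR adjusted p = 0.121) but did without sgGal4 1 (0.0327). Of 12 endothelial markers, CDH5 had 1 read in the whole series and EMCN none, while of the 7 tested, 3 were higher and 1 lower in sgHBG than in sgGal4 (all genes: 12.1% and 12.6%). TEK rose from 0.299 ± 0.14 to 1.27 ± 0.43 CPM (edgeR adjusted p = 0.0128), PLVAP from 0.344 ± 0.10 to 1.10 ± 0.27 CPM (0.0205) and MMRN2 from 0.938 ± 0.41 to 5.02 ± 0.72 CPM (0.000154), each as mean ± SD with n = 3. The summed list was 97.0 to 107 CPM in sgHBG and 89.7 to 147 CPM in sgGal4, most of it from EGFL7 and NOS3, and NOS3 was the lower one. The part of these markers in the SELP values was not tested.

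The remaining granule genes were close to the limit of detection. VWF, von Willebrand factor, is made by megakaryocytes and endothelium. Its reads were 3 and 6 in WT, 4, 6 and 7 in sgGal4, 13, 10 and 19 in sgHS2, 7, 4 and 14 in sgHBG, and 0, 16 and 10 in sgHS1-5. The sgHS2 libraries of VWF were above those of sgGal4 without overlap, but the log2 difference of 1.13 ± 0.71 did not pass (edgeR adjusted p = 0.259), and no other comparison of VWF passed either. Without sgHS1-5 1, the library with 0 reads, VWF passed in sgHS1-5 against sgGal4 (log2 1.54, edgeR adjusted p = 0.0293), in sgHS1-5 against WT (2.04, 0.0133) and in sgHS2 against WT (1.63, 0.0334). PF4, platelet factor 4, the chemokine used as a late marker of the lineage, had 3 reads in all, 1 in sgHBG 1 and 2 in sgHBG 3, and was not testable.

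FLI1 was read in sgHBG and in part of sgHS1-5. FLI1 encodes the ETS factor introduced above and lies on chromosome 11, as do the globin genes of the targeted cluster. An effect of this shared chromosome was not tested. Its reads were 0 and 0 in WT, 2, 3 and 6 in sgGal4, 1, 2 and 0 in sgHS2, 79, 77 and 79 in sgHBG, and 2, 288 and 60 in sgHS1-5. The sgHBG libraries agreed closely, at 7.22 ± 0.59 CPM (SD, n = 3), while sgHS1-5 ranged from 0.324 to 39.3 CPM and overlapped sgGal4. The log2 difference of FLI1 in sgHBG was 4.18 ± 1.19 from sgGal4 (edgeR adjusted p = 0.025), and against the 0 reads of WT it was at least 51.2-fold higher (0.0113). Against sgHS2, with 3 reads, the FLI1 count ratio was 75.8 (exact binomial 95% interval 25.6 to 370, counting error only, edgeR adjusted p = 0.0237).

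All groups share an estimate of the spread, to which the uneven sgHS1-5 libraries contribute. Without sgHS1-5 2 and 3 the FLI1 log2 difference between sgHBG and sgGal4 was still 4.18, with an edgeR adjusted p of 2.49e-05. The call was lost when sgGal4 2 (edgeR adjusted p = 0.0624) or any of the sgHBG libraries 1 to 3 (0.0579, 0.0549 and 0.0548) was left out, with FLI1 log2 differences of 3.99 to 4.21. The FLI1 call against WT was likewise lost without WT 1 or WT 2 (edgeR adjusted p = 0.069 and 0.074), and that against sgHS2 when any single library of either group was left out (0.0605 to 0.0938).

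The FLI1 level in sgHS1-5 moved with genes of other blood lineages. Its log2 difference from sgGal4 was 5.33 ± 1.17 (edgeR adjusted p = 0.00416), and FLI1 in sgHS1-5 was at least 119-fold higher than in WT (0.00323). Without sgHS1-5 2 and 3, the FLI1 difference from sgGal4 was −0.25 (edgeR adjusted p = 0.892) and that from WT did not pass (0.0649). FLI1 in sgHBG differed from that in sgHS1-5 by −1.15 ± 0.83 (edgeR adjusted p = 0.351), by −1.72 without sgHS1-5 1 (0.0248) and by 0.71 without sgHS1-5 2 (0.496). The 12 listed myeloid markers, such as MPO, the peroxidase of neutrophil granules, had a joint level of 134, 2257 and 512 CPM in libraries 1, 2 and 3 of sgHS1-5 and of 72.8 to 234 CPM in the other 11. The 10 lymphoid markers summed to 36.1, 129 and 55.4 CPM, against 3.21 to 22.0 CPM elsewhere. Of these markers 7 of the 10 tested myeloid and all 8 tested lymphoid genes were higher in sgHS1-5 than in sgGal4 by the edgeR test (all genes: 20.3%). Some of them passed the low-count filter only through sgHS1-5. The lymphoid marker MS4A1 was at 0 CPM in the other groups, and MPO had at most 3 reads in any library outside sgHS1-5. These counts therefore depend partly on that filter. In sgHBG the myeloid sum was 111 to 118 CPM, below the 190 to 234 CPM of sgGal4, and the lymphoid sum was 13.7 to 17.2 CPM, above the 3.21 to 8.65 CPM of sgGal4. Most of the myeloid sum in both groups was LYZ, at 86.2 CPM in sgHBG and 185 CPM in sgGal4, which did not pass (edgeR adjusted p = 0.0957). Of the 10 tested myeloid genes, 0 were higher and 0 lower in sgHBG than in sgGal4. Of the 8 tested lymphoid genes, 2 were higher and 0 lower (all genes: 12.1% and 12.6%). The part of these markers in the FLI1 values was not tested. Since these are bulk libraries, more cells with FLI1 and more FLI1 RNA per cell cannot be told apart.

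**Figure D2:**
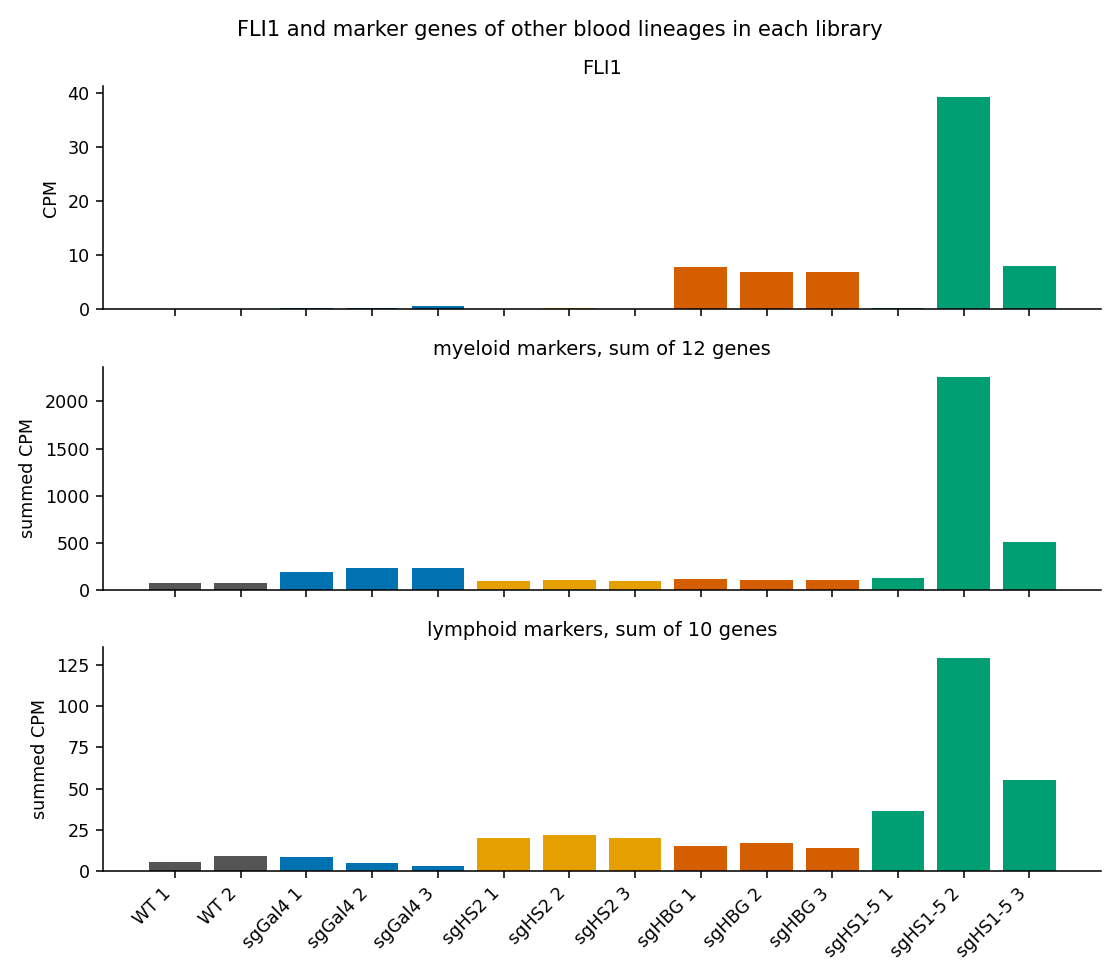
FLI1 level (top, CPM scaled by TMM), summed CPM of 12 myeloid markers (middle) and of 10 lymphoid markers (bottom) in each library. All 3 panels have their highest bar at sgHS1-5 2, and the sgHBG libraries carry FLI1 at a myeloid sum of 111 to 118 CPM, most of it LYZ.

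ITGA2B did not share the unevenness of FLI1 within sgHS1-5. The library with the lowest FLI1, sgHS1-5 1 (2 reads), had the highest ITGA2B of its group (122 CPM), and sgHS1-5 2, with the highest FLI1, had the lowest (80.3 CPM). Other genes of the lineage differed in this. In libraries 1, 2 and 3, VWF (0, 2.18 and 1.35 CPM), PLEK (11.3, 154 and 31.6 CPM) and ITGA6 (1.46, 19.0 and 8.52 CPM) were ordered like FLI1. MMRN1 (2.43, 1.23 and 1.89 CPM) and TAL1 (81.0, 50.9 and 71.5 CPM) were ordered like ITGA2B. A link to FLI1 was not tested. Without sgHS1-5 2 and 3 the ITGA2B difference from sgGal4 was 1.2 (edgeR adjusted p = 0.00106).

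Counted over the 9 genes, of which 7 passed the low-count filter, the sgHBG group had the most calls. Against sgGal4, 5 were higher and 0 lower in sgHBG (all genes: 12.1% higher, 12.6% lower), namely ITGA2B, ITGB3, THBS1, SELP and FLI1. In sgHS1-5, 3 were higher and 0 lower (all genes: 20.3% and 20.2%), namely ITGA2B, ITGB3 and FLI1. In sgHS2, 2 were higher and 0 lower (all genes: 14.5% and 15.6%), namely ITGB3 and THBS1. The median log2 difference of the 7 genes was 1.99 in sgHBG, 0.93 in sgHS1-5 and 0.30 in sgHS2, beside medians between −0.02 and 0.02 over all 14406 genes tested. These comparisons share the sgGal4 libraries. SELP and FLI1 passed the filter only through groups in which they were high. SELP had at most 7 reads in any library outside sgHBG, and FLI1 at most 6 outside sgHBG and sgHS1-5. Counts that include SELP or FLI1, here and below, therefore depend partly on that filter.

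Against WT the only lower calls were those of GP1BA, in sgGal4 and sgHS2. In sgGal4, 1 gene was higher (THBS1) and 1 lower (GP1BA), where 22.7% of all genes were higher and 19.6% lower. In sgHS2, 3 were higher and 1 lower (all genes: 17.6% and 15.5%), of which ITGB3 (edgeR adjusted p = 0.0414) and GP1BA (0.0428) were near the threshold. The ITGB3 call in sgHS2 against WT held under 16 of 27 other settings and that of GP1BA under 14 of 27, and leaving out either WT library ended both. In sgHBG, 5 were higher and 0 lower (all genes: 17.7% and 15.9%), and in sgHS1-5, 3 were higher and 0 lower (all genes: 23.4% and 19.5%). The median log2 difference was 0.50 in sgGal4, 0.81 in sgHS2, 2.58 in sgHBG and 1.47 in sgHS1-5, beside 0.02 to 0.05 over all genes. With 7 genes tested, 1 or 2 calls are near what those background shares give.

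Between targeting groups, sgHBG was the higher one for the genes called. Against sgHS2, 4 genes were higher in sgHBG (ITGA2B, THBS1, SELP and FLI1) and 0 lower, where 5.15% of all genes were higher and 3.76% lower. Against sgHS1-5, 4 were higher (ITGA2B, ITGB3, THBS1 and SELP) and 0 lower (all genes: 12.8% and 12.4%). In sgHS2 against sgHS1-5, THBS1 was higher and ITGA2B and FLI1 were lower (all genes: 18.5% and 20.4%). Summed over the 9 genes, the level was 328 to 337 CPM in sgHBG, 148 to 158 CPM in sgHS1-5, 110.0 to 119 CPM in sgHS2, 77.0 to 78.7 CPM in sgGal4 and 47.6 to 48.2 CPM in WT, a sum that ITGA2B and THBS1 dominate.

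**Figure D3:**
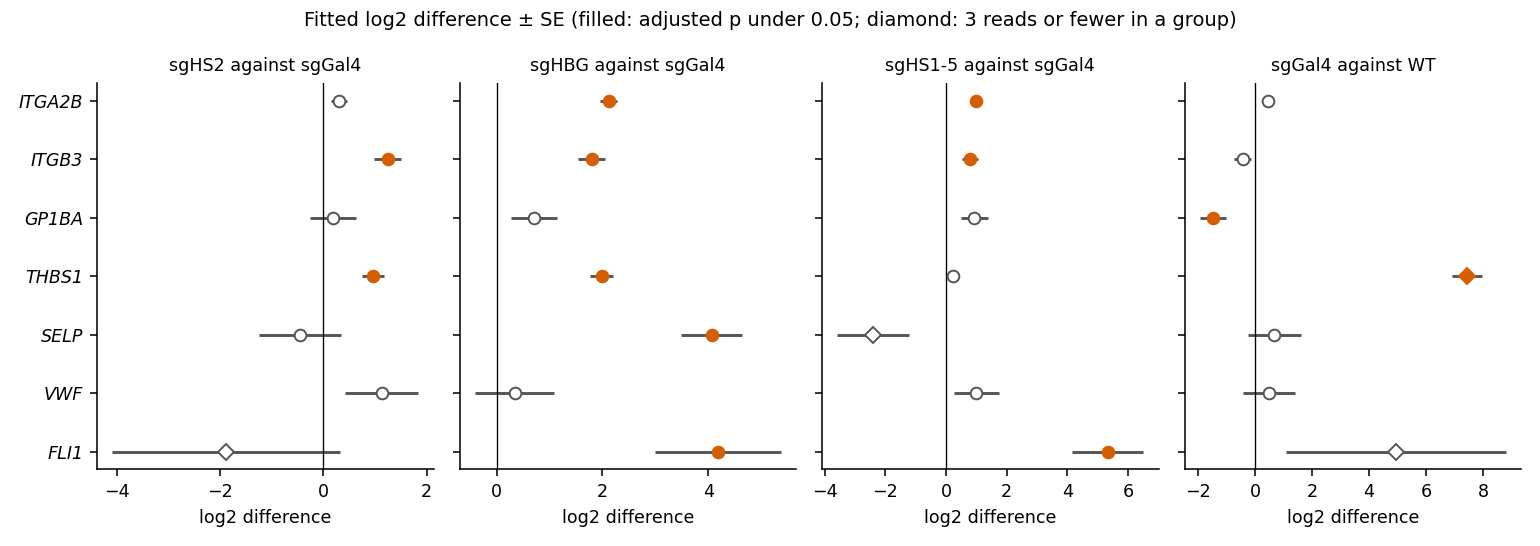
Fitted log2 difference ± SE of the 7 tested genes in 4 comparisons. Filled symbols have an edgeR adjusted p under 0.05 and diamonds mark a group with 3 reads or fewer. In sgHBG against sgGal4, 5 of 7 symbols are filled, all to the right of 0.

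Other genes of megakaryocytes and platelets, from a list of 77 of which 66 were tested, changed in both directions. Against sgGal4, 20 were higher and 4 lower in sgHBG, 21 higher and 11 lower in sgHS1-5, and 14 higher and 7 lower in sgHS2. In sgGal4 against WT 22 were higher and 12 lower. Of the 66, these are 30.3% and 6.06%, 31.8% and 16.7%, 21.2% and 10.6%, and 33.3% and 18.2%, beside 12.1% and 12.6%, 20.3% and 20.2%, 14.5% and 15.6%, and 22.7% and 19.6% of all genes, in the same order. The median log2 difference of the list was 0.35 in sgHBG, 0.30 in sgHS1-5 and 0.19 in sgHS2 against sgGal4, and 0.30 in sgGal4 against WT. Of the 77, 11 were too low to test, among them PPBP, a platelet chemokine gene (23 reads in all).

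Of 12 transcription factors of the lineage tested, 4 were higher in sgHBG (TAL1, RUNX1, HHEX and MEIS1), 4 in sgHS1-5 and 3 in sgHS2, with 0 lower in each. The shares higher were 33.3%, 33.3% and 25.0% beside 12.1%, 20.3% and 14.5% of all genes. In sgGal4 against WT, 2 were higher and 4 lower, or 16.7% and 33.3% (all genes: 22.7% and 19.6%). In sgHBG against WT, 3 were higher and 2 lower, or 25% and 16.7% (all genes: 17.7% and 15.9%). TAL1, a factor shared by red cells and megakaryocytes, was at 144 ± 0.32 CPM (SD, n = 2) in WT and 48.7 ± 5.53 CPM (n = 3) in sgGal4, a log2 difference of −1.56 ± 0.16 (edgeR adjusted p = 6.78e-06). In sgHBG it was at 89.6 ± 3.27 CPM (n = 3), above sgGal4 and below WT. GATA1, at 187 ± 63.9 CPM in sgGal4 and 158 ± 3.57 CPM in sgHBG (n = 3 each), was not among those called in sgHBG.

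Of 13 surface receptor genes tested, 3 were higher in sgHBG and 0 lower, 2 higher and 1 lower in sgHS2, and 4 higher and 3 lower in sgHS1-5. These shares are 23.1% and 0%, 15.4% and 7.69%, and 30.8% and 23.1%. The shares of all genes were 12.1% and 12.6%, 14.5% and 15.6%, and 20.3% and 20.2%. P2RX1, an ATP-gated channel of platelets, was at 43.5, 50.1 and 53.9 CPM in sgGal4, 157, 175 and 173 CPM in sgHS2, 146, 152 and 160.0 CPM in sgHBG, and 49.6, 40.1 and 41.8 CPM in sgHS1-5. The sgHS2 and sgHBG libraries did not overlap with the others, and P2RX1 exceeded sgGal4 there by log2 1.77 ± 0.11 (edgeR adjusted p = 3.94e-07) and 1.63 ± 0.11 (1.37e-06) over sgGal4. GP6, the platelet collagen receptor, was at 2.55, 2.13 and 3.58 CPM in sgGal4 and at 10.4, 7.65 and 11.2 CPM in sgHS1-5, a log2 difference of 1.81 ± 0.26 (edgeR adjusted p = 0.000245). The sgHBG libraries, at 7.50, 6.96 and 8.72 CPM of GP6, were also above all sgGal4 libraries. ESAM, a junction protein of platelets and endothelium, was lower in sgHS2 and sgHS1-5 than in sgGal4, by log2 differences of −1.84 ± 0.23 and −1.82 ± 0.24 (edgeR adjusted p = 9.38e-05 and 0.000123). ESAM averaged 7.44 CPM in sgGal4 and was at 1.25 and 1.82 CPM in WT.

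Granule genes had calls in both directions. Of 20 tested, 6 were higher and 2 lower in sgHBG, 5 and 4 in sgHS2, 5 and 5 in sgHS1-5, and 10 and 2 in sgGal4 against WT. These shares are 30% and 10%, 25% and 20%, 25% and 25%, and 50% and 10%. The shares of all genes were 12.1% and 12.6%, 14.5% and 15.6%, 20.3% and 20.2%, and 22.7% and 19.6%. PDGFA, a growth factor chain, was at 29.9 ± 11.3 CPM in sgGal4, with 43.0 CPM in sgGal4 1, and at 10.4 ± 0.48 CPM in sgHBG (edgeR adjusted p = 0.000391). In WT it was at 12.4 and 13.4 CPM, below all sgGal4 libraries. EGF was 2.77-fold higher in sgHS2 than in sgGal4 (edgeR adjusted p = 0.000103), and SPARC was 2.30-fold lower in sgHS1-5 (1.13e-05). For both, sgGal4 also stood apart from WT. EGF averaged 5.16 CPM in sgGal4 beside 10.8 and 12.2 CPM in WT, and SPARC 57.3 CPM beside 22.6 and 23.6 CPM. LAMP3, better known from dendritic cells, was 10.0-fold lower in sgGal4 than in WT (edgeR adjusted p = 2.18e-08).

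Cytoskeletal and signalling genes completed the list. Of 21 tested, 7 were higher and 2 lower in sgHBG, 4 and 2 in sgHS2, 8 and 3 in sgHS1-5, and 6 and 4 in sgGal4 against WT. These shares are 33.3% and 9.52%, 19.0% and 9.52%, 38.1% and 14.3%, and 28.6% and 19.0%. The shares of all genes were 12.1% and 12.6%, 14.5% and 15.6%, 20.3% and 20.2%, and 22.7% and 19.6%. FERMT3, which encodes kindlin-3, an activator of αIIbβ3, was at 210 and 219 CPM in WT, 156, 147 and 149 CPM in sgGal4, 256, 315 and 246 CPM in sgHS2 and 271, 273 and 268 CPM in sgHBG. Its log2 difference from sgGal4 was 0.85 ± 0.11 in both targeting groups (edgeR adjusted p = 8.63e-05 and 0.000154). TUBB1, the platelet tubulin, was 3.58-fold higher in sgHS1-5 than in sgGal4 (edgeR adjusted p = 0.000217). The sgGal4 libraries, at 1.13, 2.42 and 2.20 CPM of TUBB1, were below those of all other groups, with WT at 2.69 and 3.55 CPM. GUCY1B3, a subunit of the nitric oxide receptor, was at 2.41, 4.65 and 4.13 CPM in sgGal4 and at no more than 0.137 CPM in any other library, with edgeR adjusted p of 3.8e-05 in sgHS2, 0.000106 in sgHBG and 7.9e-05 in sgHS1-5 against sgGal4. PTGS1 and LCP2, a prostaglandin synthase and a platelet adaptor, were 3.56-fold and 3.44-fold higher in sgGal4 than in WT (edgeR adjusted p = 1.08e-07 and 5.55e-06).

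**Figure D4:**
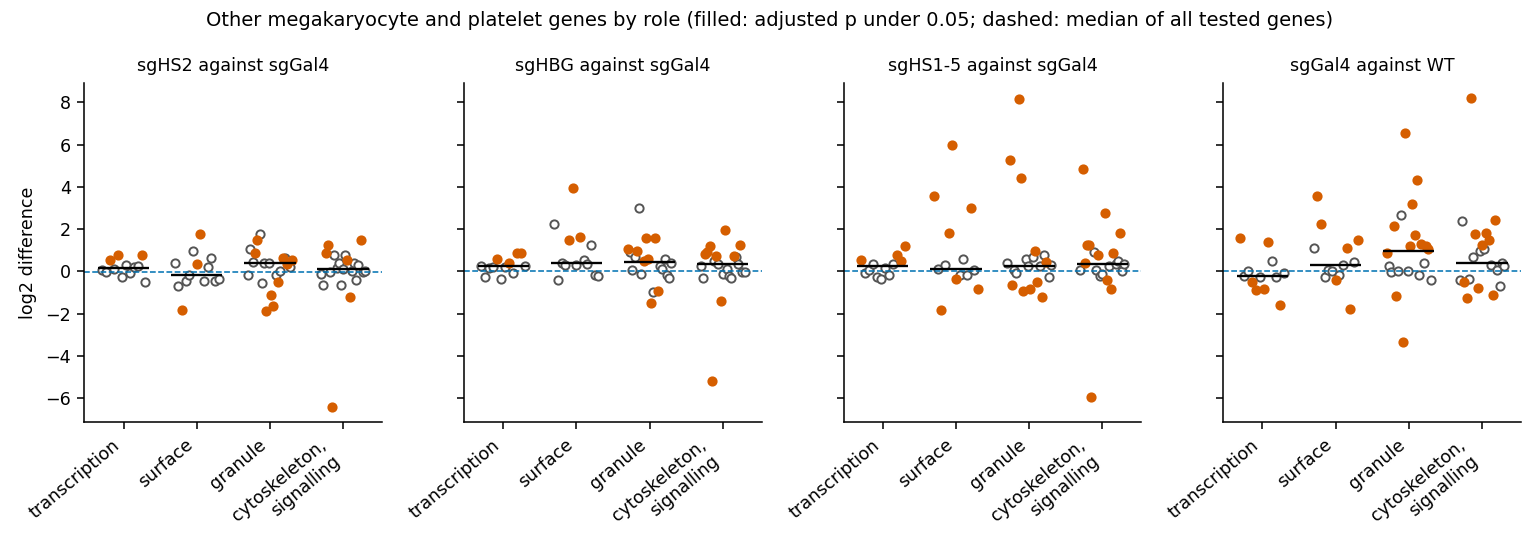
Log2 difference of the 66 tested genes of the wider list by role, in 4 comparisons. Filled points have an edgeR adjusted p under 0.05, bars are medians of the role and the dashed line is the median of all 14406 tested genes. Filled points lie on both sides of 0 in the granule and in the cytoskeleton and signalling columns of every panel, and on the upper side alone in the transcription column of the 3 targeting panels.

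Genes whose levels followed those of the 9 most closely over the 14 libraries were, apart from LCP2, outside the wider list. The measure was Pearson's r of log2(CPM + 0.5) over 13241 genes, given as a description, since the libraries of a group share a guide and similar depth. ITGA2B was followed by CLEC10A (0.98), ABCB4 (0.97) and LPAL2 (0.94). CLEC10A, a lectin of macrophages and dendritic cells, averaged 4.39 CPM in sgHBG and 1.45 CPM in sgHS1-5 and had 0 reads in WT. ITGB3 was followed by ZNF542P (0.95), RPS6KA5 (0.94) and FAM21C (0.94), and GP1BA by USP49 and COX10-AS1 (both 0.94). For THBS1 the closest were OSMR (0.99), LCP2 (0.99) and PPP1R10 (0.98), and for SELP they were CHRM3-AS2 (0.91), KRT81 (0.89) and GLIS3 (0.89). FLI1 was followed by RGS18 (0.98), CORO1A (0.97) and HBEGF (0.97), and RGS18, a signalling regulator of platelets, had 2, 83 and 15 reads in sgHS1-5 1, 2 and 3.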

How the data were processed

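RNA-seq was run on total RNA of K562 cells with a TruSeq RNA v2 kit, per the labels' protocols. Per the submitters' processing notes, the authors used TopHat, Cufflinks and DESeq with build hg19, and versions, annotation and counting tool are not given in the sources used here. The authors deposited raw read counts per gene (24729 genes) and RPKM values (25268 genes). Counting by strand is not stated. Of 126 values of the 9 genes, 5 have 0 reads but an RPKM above 0.

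The counts were tested in edgeR (version 4.0.16, R 4.3.3) with these steps: filterByExpr (minimum count 10, minimum total 15, 14406 genes left), TMM scaling, a single model of all 14 libraries with 1 coefficient for each group, leaving 9 residual degrees of freedom, and the quasi-likelihood F test, adjusted by Benjamini-Hochberg over all genes tested and called under 0.05. In the text edgeR adjusted p means this test, and values in brackets after a first such p are of the same kind. SE is the log2 difference divided by the square root of F. In all, 10 comparisons were made. A fold against a group with 0 reads uses 3 reads over the group. Genes of the wider list were named by lowest p (5 per comparison), and likeness by the 3 highest r for genes with a mean of at least 1 CPM. MPO, LYZ, MS4A1, PPBP, CDH5, EMCN, TEK, PLVAP, MMRN2, EGFL7, NOS3, GATA1, GP1BB, GP5, SEPT5, PLEK, ITGA6 and MMRN1 were named after their values were seen. Some genes that these rules name are not reported here. The 9 genes and the lists were chosen with earlier results of these data known. Alternatives were RLE factors, other filters, DESeq2 1.42.0, limma 3.58.1 (voom, and on log2 RPKM), a replicate block, and libraries left out. The procedure was tested on simulated data.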

Additional observations from a re-analysis of the deposited data

How the results depend on the processing

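Of 1865 values of the 7 tested genes under other settings, 1730 (92.8%) kept their direction and side of the threshold, 72 lost a call, 35 gained one and 28 changed sign. The calls of ITGA2B, ITGB3, THBS1 and SELP in sgHBG against sgGal4 held under all 27 settings, and that of FLI1 under 20 of 27 (lost under voom, adjusted p = 0.126, under RPKM plus 1, and without sgGal4 2 or any sgHBG library). Fits with a lone sgHS1-5 library assume that it varies like the other groups. FLI1 gave no value where too few reads passed the filter. Low reads limit VWF, SELP outside sgHBG, GP9 and PF4. The cause of the changes below was not tested.

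Counts of called genes that moved were as follows. With only the compared groups, sgHS2 and sgHS1-5 against sgGal4 and sgGal4 against WT each gave 1 call. Over all genes, these fits called 2306 of 13020, 2203 of 12887 and 3502 of 13291. The main fit called 4332, 5823 and 6103 of 14406. Fits that omit sgHS1-5 2 and 3 leave 1 library in that group, so their counts of calls are not given. Calls over all genes also moved with single libraries. Without sgGal4 1 they were 7348 of 14400 in sgGal4 against WT and 7053 in sgHS2 against WT. In the main fit they were 6103 and 4769 of 14406. Leaving out each library in turn gave 1 to 3 calls in sgGal4 against WT and 2 to 5 in sgHS2 against WT. Replicate numbers did not pair libraries: of 26 pairs with the same number, r of their deviations ranged from −0.60 to 0.42 and 2 were over 0.1. The replicate block gave 2 calls in sgHS2 against WT in place of 4 (all genes: 4298 in place of 4769, of 14406).

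Log2 differences that changed sign were of genes whose groups overlapped or held few reads. Leaving out each library in turn gave, against sgGal4, −0.14 to 0.52 for GP1BA and −0.89 to 0.90 for SELP in sgHS2, −0.19 to 0.68 for VWF in sgHBG, and −0.056 to 0.40 for THBS1 in sgHS1-5. For SELP it gave −0.67 to 1.62 in sgGal4 and −0.36 to 1.18 in sgHS2 against WT. Between targeting groups it gave −1.20 to 0.065 for VWF and −1.72 to 0.71 for FLI1 in sgHBG against sgHS1-5, and −0.41 to 0.85 for VWF in sgHS2 against sgHS1-5. Omitting sgGal4 1 and sgHS2 2 gave −0.076 for THBS1 in sgHS1-5 against sgGal4 and −0.079 for SELP in sgHS2 against WT. Omitting sgHS1-5 2 and 3 gave −5.62 for VWF and −0.25 for FLI1 in sgHS1-5 against sgGal4, −5.12 for VWF in sgHS1-5 against WT, and 5.96 for VWF and 4.42 for FLI1 in sgHBG against sgHS1-5. Omitting all 4 libraries gave −5.70, −0.38, −5.17, 6.01 and 4.42 in the same order, and −0.057 for SELP in sgHS2 against WT. In sgHBG against sgHS1-5, voom gave 0.076 for VWF and 0.36 for FLI1, and RPKM plus 0.1 gave 0.12 for FLI1.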
